A study of Rattus norvegicus with 10 samples.

Results

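Potassium channel genes were taken as every row of the deposited table whose gene name starts with Kcn, which gave 92 of 32623 rat genes. A mean of at least 10 normalized counts over the 10 samples was reached by 79 of the 92, among 15597 such genes in all, and these 79 were tested. RNA had been sequenced from 5 shControl and 5 shOpn3 samples of the supraoptic nucleus in male rats of the outbred Sprague Dawley strain. Each rat had been given an adeno-associated virus on both sides of the brain, with a hairpin RNA against Opn3, the gene of the light-sensitive receptor opsin 3, in one nucleus and a non-targeting hairpin in the other. Both groups therefore carried virus and hairpin, and 2 weeks later each nucleus was taken with a 1-mm punch from 100 µm sections and extracted on its own. The labels do not state the age of the rats, the promoter that drives the hairpin, the cells that took up the virus, or whether the 5 samples of a group came from 5 rats, so that the p-values measure the spread between these samples.

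Potassium channels let potassium leave the cell, which brings the membrane back to rest after an action potential and sets how readily a neuron fires again. Pore-forming subunits are opened by voltage, by calcium or sodium inside the cell, or are open at rest, and auxiliary subunits change their gating, their number at the surface or both. The magnocellular neurons of the supraoptic nucleus, which release vasopressin (Avp) and oxytocin (Oxt), fire in bursts or continuous trains shaped by such currents, and glial channels take up the potassium that the firing releases.

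A normalized count is a read count that the authors divided by 1 size factor per sample. Size factors lay between 0.942 and 1.07 and total reads between 33158341 and 39958578, so that a normalized count was close to 1 read. The targeted gene, Opn3, stood at 719, 694, 841, 1007 and 261 normalized counts in shControl replicates 1 to 5 and at 290, 193, 159, 154 and 145 in shOpn3 replicates 1 to 5. In each of the 5 pairs of equal number the shOpn3 sample was lower, although shControl replicate 5 lay below shOpn3 replicate 1 (limma log2 fold change -1.82, adjusted p = 0.00226; p = 0.0159 in an exact permutation test, two-sided).

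Changes among the potassium channel genes went in both directions. At a limma adjusted p under 0.05, which is called a change below, 17 of the 79 tested genes rose and 9 fell in shOpn3, and 53 were not called. The share called was 32.9%, beside 18.8% of all genes tested. All genes gave 10.4% higher and 8.48% lower calls. The median log2 difference of the 79 genes was 0.05, beside -0.02 over all genes tested. For 20 of the 79 the groups lay apart without overlap, beside 2380 of all 15597 genes (15.3%), and all 20 were among the 26 called. In 39 of the 79 all 5 pairs differed in the same direction, beside 6153 of all 15597 genes (39.4%). Summed over the 92 genes, normalized counts lay between 73390 and 82624 in shControl and between 66877 and 85983 in shOpn3, so that the groups overlapped in their total.

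**Figure D1:**
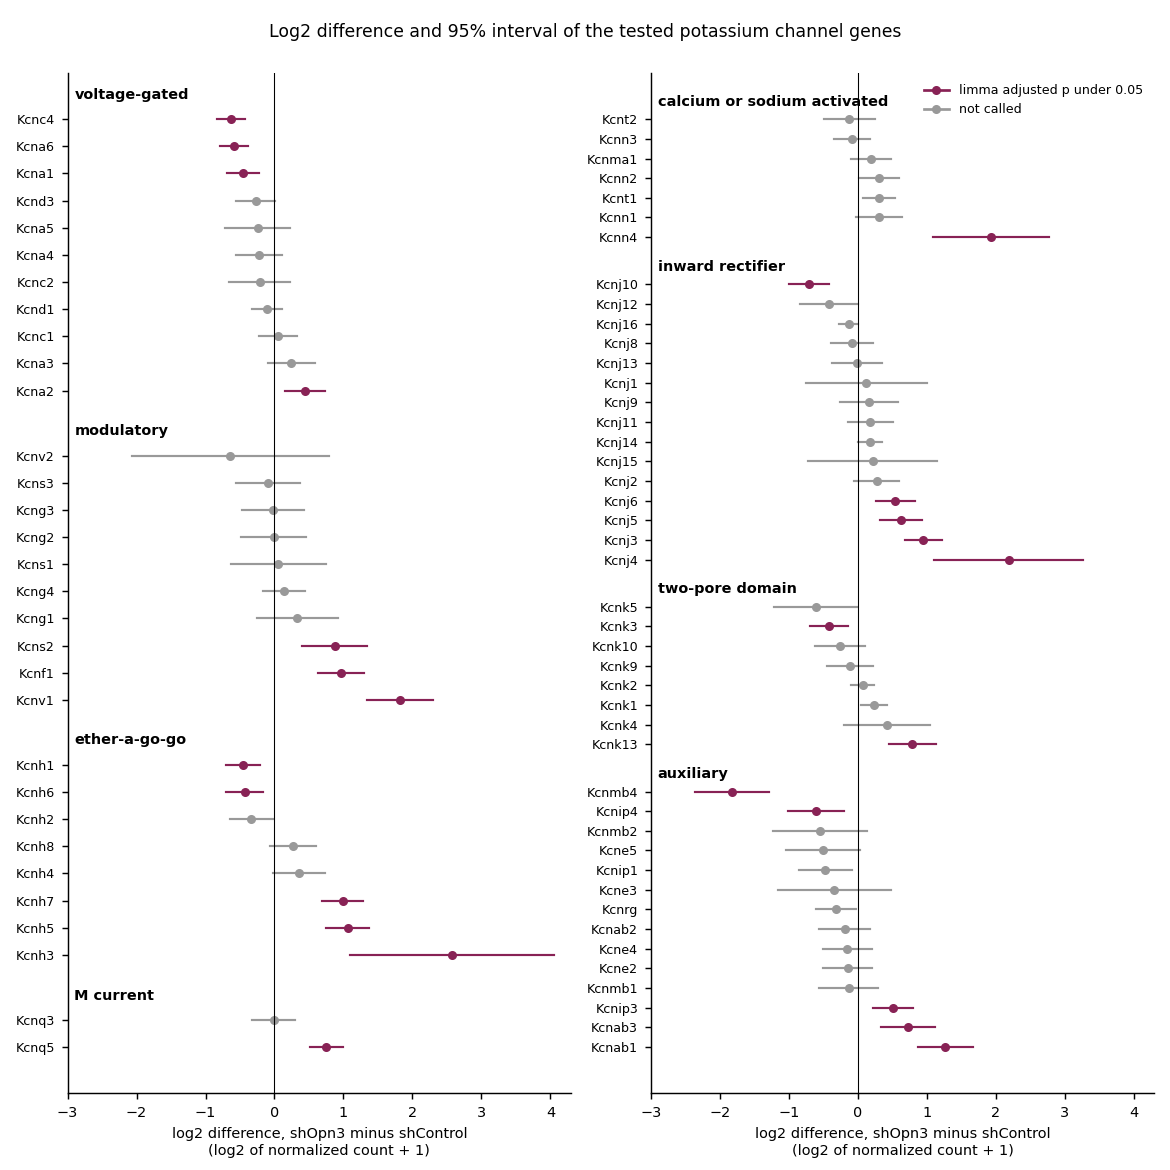
Log2 difference (shOpn3 minus shControl, on the scale of log2 of the normalized count + 1) of 75 of the 79 tested potassium channel genes, grouped by role. Points are limma estimates and lines their 95% intervals, in purple for the 26 genes with an adjusted p under 0.05 and in grey for the other 49. Estimates run from -1.83 for Kcnmb4 to 2.58 for Kcnh3.

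With the replicate number as a block, 14 members fell in place of 9 and 20 rose in place of 17, and all 26 genes called without the block were called with it. In all the block called 34 of the 79 members, beside 4726 of all 15597 genes (30.3%). Without shControl replicates 1 and 5, which stand apart for several members described below, 33 of the 79 members were called (22 higher, 11 lower), beside 22.3% of all genes. Among the 33 were 23 of the 26. This fit, and that without both samples of those numbers, were chosen after the data had been seen. Their values and calls, here and below, are therefore descriptive. Replicates 1 and 5 were the lowest controls for Kcnc2, Kcnd3, Kcnmb2 and Kcnip1, which were lower in shOpn3. They were the highest controls for Kcng1, Kcnh4 and Kcnt1, which were higher. Leaving them out was therefore bound to enlarge the differences of these members, and their calls in that fit add no support.

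**Figure D2:**
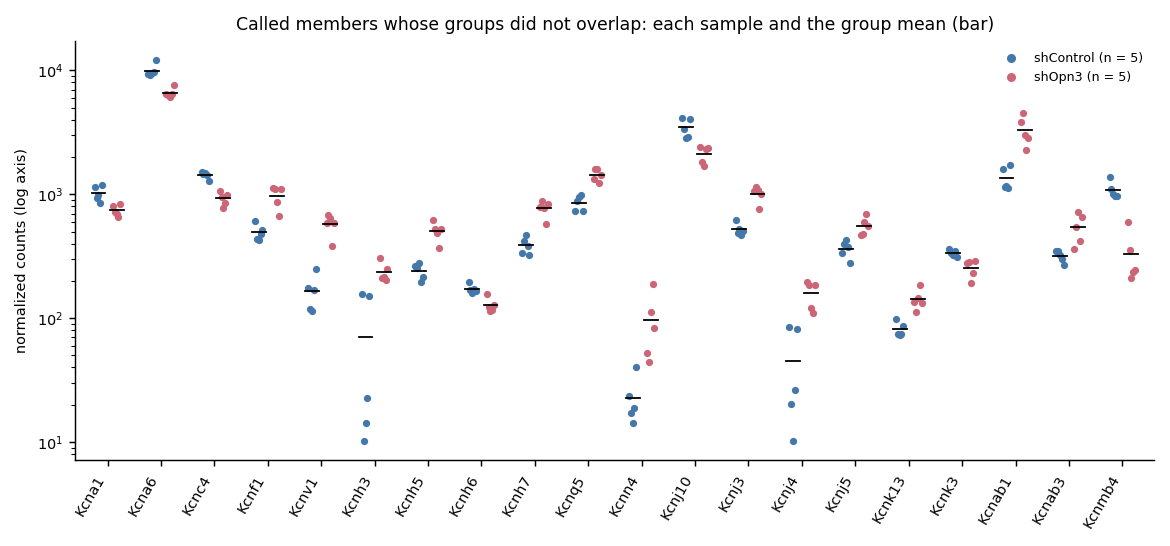
Normalized counts on a log axis of the 20 called members whose groups did not overlap. Each point is a sample, blue for shControl and red for shOpn3 (n = 5 each), and the black bar is the group mean. For Kcnh3 and Kcnj4, shControl replicates 1 and 5 lie above the other controls and nearer to the shOpn3 samples.

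The first group comprised the voltage-gated genes whose products form channels on their own (Kcna, Kcnb, Kcnc and Kcnd), of which 13 were tested. Kcna6, Kcnc4 and Kcna1 fell, Kcna2 rose, and 9 were not called. The median log2 difference of the group was -0.22. Kcnb2 and Kcnd2 are not analysed here.

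Kcna6 (ENSRNOG00000052486), a subunit of low-threshold channels, had 9291, 9219, 9486, 9737 and 12194 normalized counts in shControl replicates 1 to 5 and 6445, 6354, 6099, 6490 and 7664 in shOpn3. Every shOpn3 sample lay below every control, and replicate 5 was the highest sample of both groups. The mean fell from 9986 ± 1251 to 6610 ± 608 (SD over 5 samples a group), and the log2 fold change was -0.59 (limma SE 0.0930, adjusted p = 0.00120). Kcna1 (ENSRNOG00000019750), whose product sits beside the nodes of myelinated axons as well as on fine axons, had 1145, 939, 986, 856 and 1190 in shControl and 807, 722, 694, 658 and 828 in shOpn3. It fell by 0.46 on the log2 scale (limma SE 0.108, adjusted p = 0.0110), with no overlap between the groups. In the RefSeq gene order of assembly GRCr8, Kcna5, Kcna1 and Kcna6 are direct neighbours, and the third of them, Kcna5, had a log2 difference of -0.24 that was not called (95% interval -0.71 to 0.23).

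Kcna2 (ENSRNOG00000018285) codes for a partner of Kcna1 in the same axonal channels and moved the other way. Its shControl samples had 8394, 9902, 10443, 9097 and 6521 normalized counts and its shOpn3 samples 11525, 14117, 12654, 9591 and 12234. The shOpn3 samples were the higher of each pair, but shOpn3 replicate 4 lay below shControl replicates 2 and 3. The rise was 0.45 on the log2 scale (limma SE 0.133, adjusted p = 0.0349). The call was lost when any 1 of shControl replicates 1, 4 and 5 or shOpn3 replicates 2, 3 and 5 was left out (log2 fold change 0.34 to 0.46, adjusted p 0.0540 to 0.0857), and without shControl replicates 1 and 5 together (0.28, adjusted p = 0.0987). Kcna3, its neighbour in the RefSeq order, had a log2 difference of 0.24 (95% interval -0.10 to 0.58).

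Kcnc4 (ENSRNOG00000060988) belongs to the subfamily that speeds the end of the action potential. It stood at 1525, 1453, 1485, 1429 and 1273 normalized counts in shControl and at 1065, 957, 778, 856 and 993 in shOpn3, without overlap. It fell by 0.63 on the log2 scale (limma SE 0.0948, adjusted p = 0.000956). Kcnc1 and Kcnc2, of the same subfamily, had log2 differences of 0.05 and -0.22 and were not called. Without shControl replicates 1 and 5, Kcnc2 was at -0.51 and called (adjusted p = 0.0484).

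Kcnd3 (ENSRNOG00000014686), a subunit of the transient A-type current described in magnocellular neurons, had 5404, 6273, 6922, 6528 and 4622 normalized counts in shControl and 5315, 5984, 4880, 3997 and 4464 in shOpn3. It was lower in 5 of 5 pairs with overlapping groups, and its log2 difference of -0.27 was not called (95% interval -0.55 to 0.01). Without shControl replicates 1 and 5 the difference was -0.43 (adjusted p = 0.0253).

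Modulatory voltage-gated subunits (Kcnf, Kcng, Kcns and Kcnv) form no channel alone and change the channels of Kcnb subunits. Of 10 tested, Kcnv1, Kcnf1 and Kcns2 rose, 0 fell and 7 were not called. The median log2 difference was 0.10. All 4 Kcng genes were among those not called. Kcng4 had a mean of 580 ± 87.2 normalized counts over the 5 controls and of 641 ± 116 over the 5 shOpn3 samples (± SD). Kcng1 had a log2 difference of 0.33, and of 0.72 without shControl replicates 1 and 5, where it was called (adjusted p = 0.0395).

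Kcnv1 (ENSRNOG00000004117), known mainly from forebrain neurons, had the smallest adjusted p of all members. Its normalized counts were 176, 119, 115, 169 and 249 in shControl replicates 1 to 5 and 592, 675, 648, 382 and 583 in shOpn3. The lowest shOpn3 sample, replicate 4, stood above the highest control, replicate 5. The mean rose 3.47-fold, from 166 ± 54.3 to 576 ± 115 (SD over 5 samples a group; limma estimate 1.82 on the log2 scale with SE 0.218 and adjusted p = 0.000349).

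Kcnf1 (ENSRNOG00000024310), which is also known from cortical neurons, had 613, 436, 427, 475 and 513 normalized counts in shControl and 1117, 1106, 875, 666 and 1102 in shOpn3. No sample of one group reached the other, and shOpn3 replicate 4 was again the lowest of its group. It rose by 0.97 (limma SE 0.155, adjusted p = 0.00133). Kcns2 had 63.7 to 135 in shControl (median 82.4) and 121 to 196 in shOpn3 (median 176). The groups overlapped through shControl replicate 1, and the rise was 0.87 on the log2 scale (limma SE 0.215, adjusted p = 0.0143).

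The ether-a-go-go genes (Kcnh) had 5 calls among 8 members tested, 3 higher and 2 lower. Kcnh5, Kcnh7 and Kcnh3 rose, Kcnh1 and Kcnh6 fell, and the median log2 difference was 0.31. Kcnh2, Kcnh4 and Kcnh8 were not called, at -0.33, 0.36 and 0.27, and Kcnh2 was called with the block (adjusted p with the block = 0.0115). Without shControl replicates 1 and 5, Kcnh4 was at 0.57 and called (adjusted p = 0.0305).

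Kcnh5 (ENSRNOG00000009542), a voltage-gated channel of neurons, had 262, 255, 278, 195 and 214 normalized counts in shControl and 615, 521, 488, 372 and 529 in shOpn3. The means were 241 ± 34.8 and 505 ± 88.0 (SD over 5 samples a group), a 2.10-fold rise (log2 fold change 1.06, limma SE 0.145, adjusted p = 0.000618). Kcnh7 (ENSRNOG00000007528), of the subgroup with slow currents near rest, had 335, 419, 470, 385 and 323 in shControl and 787, 878, 770, 578 and 835 in shOpn3. For both genes shOpn3 replicate 4 was the lowest of its group and still lay above all controls. Kcnh7 rose by 0.99 (limma SE 0.136, adjusted p = 0.000619). In RefSeq it overlaps Gca, whose log2 difference of -0.16 was not called, and the labels do not say whether reads were counted by strand.

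Kcnh3 (ENSRNOG00000057315), a forebrain channel of the same family, had 158, 10.2, 14.3, 22.5 and 150 normalized counts in shControl replicates 1 to 5 and 306, 212, 216, 203 and 252 in shOpn3. The controls fell into separate levels, with replicates 1 and 5 close to the shOpn3 samples and replicates 2, 3 and 4 far below. The log2 fold change was 2.58 (limma SE 0.680, adjusted p = 0.0195), and 3.89 without shControl replicates 1 and 5. That fit left out the controls nearest to the shOpn3 samples, so that a larger value was bound to follow. The log2 fold change of Kcnh3 was not called in edgeR (adjusted p = 0.0656) or DESeq2 (adjusted p = 0.0779). In the authors' deposited table Kcnh3 had a log2 fold change of 1.75 with an adjusted p of 0.0848. Mcrs1, which overlaps Kcnh3 in RefSeq, had a log2 difference of 0.00 (adjusted p = 0.993).

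Kcnh1 and Kcnh6 fell. Kcnh1 (ENSRNOG00000003841), a neuronal channel related to Kcnh5, had 2132, 2189, 2130, 2223 and 1681 normalized counts in shControl and 1883, 1589, 1447, 1276 and 1394 in shOpn3. The groups overlapped only because shControl replicate 5 lay below shOpn3 replicate 1, and the fall was 0.45 (log2 fold change -0.45, limma SE 0.112, adjusted p = 0.0146). Kcnh6 (ENSRNOG00000008078) had 198, 169, 159, 172 and 166 in shControl and 157, 124, 115, 117 and 127 in shOpn3. Its groups did not overlap, by the narrow margin between shControl replicate 3 and shOpn3 replicate 1. It fell by 0.43 (limma adjusted p = 0.0281). The call was lost without any 1 of shControl replicates 1, 2 and 4 or shOpn3 replicates 2, 3, 4 and 5 (log2 fold change -0.44 to -0.38, adjusted p 0.0546 to 0.0780), and without shControl replicates 1 and 5 together (-0.39, adjusted p = 0.0693).

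Kcnq genes code for the M current, a slow current that restrains repeated firing. Kcnq5 rose and the other 3 tested were not called. Kcnq5 (ENSRNOG00000013781) had 737, 888, 943, 980 and 733 normalized counts in shControl and 1333, 1598, 1593, 1224 and 1443 in shOpn3. The groups lay apart in all samples, and the mean rose 1.68-fold (log2 fold change 0.75, limma SE 0.111, adjusted p = 0.000879).

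Kcnq3 (ENSRNOG00000005206), a further M-current subunit, had 1047, 1002, 1016, 839 and 998 normalized counts in shControl and 1255, 1062, 863, 694 and 1067 in shOpn3. The shOpn3 samples spread on both sides of the controls, with a log2 difference of -0.01 (95% interval -0.32 to 0.29).

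Calcium-activated and sodium-activated channels (Kcnma, Kcnn and Kcnt) shape the pauses after an action potential in magnocellular neurons. Kcnn4 rose, 0 fell and 6 of 7 tested were not called. Kcnma1 (ENSRNOG00000005985), the pore of the large-conductance BK channel, had 1322, 1663, 1650, 1377 and 1087 normalized counts in shControl and 1884, 1783, 1538, 1270 and 1630 in shOpn3. The groups overlapped, with 3 of 5 pairs higher in shOpn3, and the log2 difference was 0.20 (95% interval -0.10 to 0.49).

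Kcnn1, Kcnn2 and Kcnn3 code for the small-conductance SK channels behind the slow pause after spikes. Kcnn1 (ENSRNOG00000029264) had 145, 105, 91.8, 119 and 110 normalized counts in shControl and 136, 130, 150, 116 and 171 in shOpn3, a log2 difference of 0.30 (95% interval -0.03 to 0.64). Kcnn2 (ENSRNOG00000016675) had 227, 287, 319, 279 and 256 in shControl and 328, 414, 367, 270 and 315 in shOpn3, a log2 difference of 0.30 (95% interval 0.01 to 0.59, adjusted p = 0.139). Kcnn3 (ENSRNOG00000020706) had 789, 718, 656, 598 and 538 in shControl and 722, 579, 574, 669 and 547 in shOpn3, a log2 difference of -0.09 (95% interval -0.35 to 0.17). The groups of all 3 SK genes overlapped and none was called. Kcnt1, a sodium-activated channel, had a log2 difference of 0.30 that was not called (adjusted p = 0.0684). It was called with the block (adjusted p with the block = 0.0137), without shControl replicates 1 and 5 (0.44, adjusted p = 0.00669) and in DESeq2.

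Kcnn4 (ENSRNOG00000019440), the intermediate-conductance channel known from microglia and lymphocytes, had 23.4, 17.3, 14.3, 18.7 and 40.1 normalized counts in shControl replicates 1 to 5 and 52.8, 44.6, 113, 188 and 83.2 in shOpn3. The lowest shOpn3 sample stood just above the highest control, and shOpn3 replicates 3 and 4 were the highest. Its mean rose 4.23-fold, from 22.8 ± 10.2 to 96.4 ± 58.1 (SD over 5 samples a group; limma estimate 1.93 on the log2 scale with SE 0.385 and adjusted p = 0.00459).

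**Figure D3:**
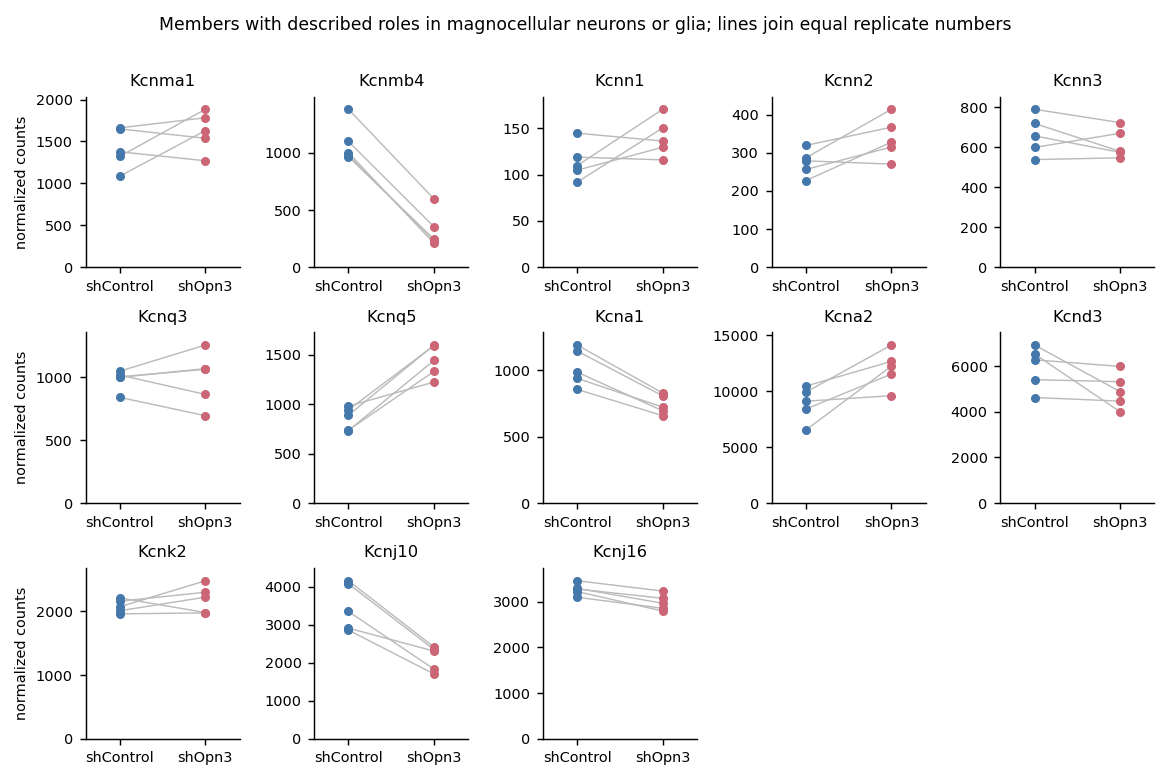
Normalized counts, each axis starting at 0, of 13 members with described roles in magnocellular neurons or glia. Points are samples and grey lines join a control (blue) to the shOpn3 sample (red) of the same replicate number. All 5 lines fall for Kcnmb4, Kcna1, Kcnj10, Kcnd3 and Kcnj16 and rise for Kcnq5 and Kcna2, and only Kcnmb4, Kcna1, Kcnj10, Kcnq5 and Kcna2 were called without the block.

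Among the auxiliary genes (Kcnab, Kcne, Kcnip, Kcnmb and Kcnrg), Kcnab1, Kcnab3 and Kcnip3 rose, Kcnmb4 and Kcnip4 fell, and 9 of 14 were not called. The median log2 difference of the group was -0.25. Kcnmb4 (ENSRNOG00000054458), the neuronal beta subunit that slows BK channels, showed the deepest fall of all members. Its normalized counts were 1382, 1101, 1002, 978 and 967 in shControl and 598, 354, 209, 236 and 245 in shOpn3. The highest shOpn3 sample, replicate 1, lay far below the lowest control, and replicate 1 was the highest of both groups. The mean fell from 1086 ± 174 to 328 ± 160 (SD over 5 samples a group), leaving 30.2% (log2 fold change -1.83, limma SE 0.245, adjusted p = 0.000568).

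Neither the pore gene Kcnma1 nor the other beta subunits tested were called beside this fall. Kcnmb2 had a log2 difference of -0.55 (95% interval -1.24 to 0.14), and -1.02 without shControl replicates 1 and 5 (adjusted p = 0.0177). Kcnmb1 was at -0.13 (95% interval -0.56 to 0.30). It overlaps Kcnip1 in RefSeq, and an effect of the overlap on the counts of either gene was not tested. Kcnmb3 had 0 reads in all samples, which allows up to 3 reads per library.

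The 250 bases before the gene start are shown for the member with the deepest fall and for Kcnh5, the rise with the smallest adjusted p that has an entry in the RefSeq promoter table. They come from assembly GRCr8, Kcnmb4 from chr7:54005102-54005351 and Kcnh5 from chr6:99643857-99644106, both on the minus strand and written 5′ to 3′. Capitals mark the GC box, GGGCGG on either strand, a motif known to bind Sp1-type factors.
Kcnmb4: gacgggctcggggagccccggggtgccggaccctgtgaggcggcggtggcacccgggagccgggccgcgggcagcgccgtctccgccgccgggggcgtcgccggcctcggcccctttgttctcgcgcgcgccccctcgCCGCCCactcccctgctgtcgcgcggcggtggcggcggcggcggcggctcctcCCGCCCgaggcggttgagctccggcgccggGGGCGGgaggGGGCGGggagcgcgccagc
Kcnh5: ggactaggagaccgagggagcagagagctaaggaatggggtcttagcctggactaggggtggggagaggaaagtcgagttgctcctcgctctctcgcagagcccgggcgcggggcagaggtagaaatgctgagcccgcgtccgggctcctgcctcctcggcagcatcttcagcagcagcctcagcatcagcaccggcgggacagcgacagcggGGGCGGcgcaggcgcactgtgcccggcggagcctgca
The Kcnmb4 window was 84.4% G or C and held 4 GC boxes, and the Kcnh5 window was 67.6% G or C and held 1. Of the 79 tested members, 55 had an entry, some of them with several windows. A GC box stood in at least 1 window of 30 of the 55 genes (54.5%), beside 33.5% of all 27457 genes in the table. Per window, 32 of their 61 held one (52.5%), beside 30.5% of all 33469 windows of this length. Their windows were also richer in G and C, with a median of 60.8% beside 51.2% over all windows. The 55 genes had passed the mean of at least 10 normalized counts, while all genes and windows in the table were not filtered by level. The sets therefore differ in more than being potassium channel genes. Among the 18 called members with an entry, 11 held a GC box. Neither the cyclic AMP response element TGACGTCA nor the octamer ATGCAAAT, searched on both strands, was found in the windows of the 55 members, beside 1.59% and 1.56% of all windows. At such shares the absence from 61 windows says little. Kcnv1 and Kcnj3 had no entry.

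Kcnab1 (ENSRNOG00000056697), a cytoplasmic beta subunit that joins the Kcna channels, had 1615, 1153, 1168, 1133 and 1714 normalized counts in shControl and 3845, 4511, 3017, 2296 and 2853 in shOpn3. No shOpn3 sample came near the controls. The mean rose from 1357 ± 284 to 3304 ± 873 (SD over 5 samples a group), 2.44-fold (log2 fold change 1.27, limma SE 0.182, adjusted p = 0.000789). Kcnab3 (ENSRNOG00000008480), of the same subfamily, had 347, 349, 326, 298 and 268 in shControl and 359, 549, 717, 417 and 659 in shOpn3. Its groups lay narrowly apart, between shControl replicate 2 and shOpn3 replicate 1, and it rose by 0.72 (limma SE 0.180, adjusted p = 0.0148). Kcnab2 had a log2 difference of -0.19 and was not called (95% interval -0.56 to 0.18).

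The calcium-binding Kcnip subunits bring the A-type channels to the membrane. Kcnip4 fell by 0.61 (log2 fold change -0.61, limma SE 0.186, adjusted p = 0.0392), from 2821 to 5593 normalized counts in shControl (median 4491) to 2014 to 3608 in shOpn3 (median 2623). It was lower in 5 of 5 pairs with overlapping groups. The call was lost without any 1 of shControl replicates 2, 3 and 4 or shOpn3 replicates 3, 4 and 5 (log2 fold change -0.59 to -0.50, adjusted p 0.0811 to 0.0893).

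Kcnip3, which also acts as a transcription repressor, rose by 0.51 (limma SE 0.136, adjusted p = 0.0204), from 455 to 741 normalized counts in shControl (median 529) to 693 to 868 in shOpn3 (median 858). Its call was lost without shControl replicate 2 or 4 or shOpn3 replicate 5 (0.43 to 0.49, adjusted p 0.0506 to 0.0521). Kcnip1 was lower in 5 of 5 pairs, and its difference of -0.47 was not called (adjusted p = 0.0859). It was called with the block (adjusted p with the block = 0.0214) and without shControl replicates 1 and 5 (-0.66, adjusted p = 0.0225). The 4 Kcne genes tested lay between -0.50 and -0.15 and none was called.

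Inward rectifiers (Kcnj) hold the resting potential, carry the inhibition by G protein-coupled receptors and, in glia, take up potassium. Of 15 tested, Kcnj4, Kcnj3, Kcnj5 and Kcnj6 rose, Kcnj10 fell and 10 were not called. The median log2 difference was 0.18. Kcnj3, Kcnj5, Kcnj6 and Kcnj9 code for the subunits of the G protein-gated channels.

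Kcnj3 (ENSRNOG00000005369) had 617, 483, 529, 467 and 508 normalized counts in shControl and 1074, 1156, 1078, 759 and 1002 in shOpn3. Its groups did not overlap and the mean rose 1.95-fold (log2 fold change 0.95, limma SE 0.121, adjusted p = 0.000427). Kcnj5 (ENSRNOG00000033796) had 334, 395, 427, 375 and 277 in shControl and 473, 477, 597, 690 and 559 in shOpn3. It rose by 0.63 (limma SE 0.140, adjusted p = 0.00827), again with separate groups, and shOpn3 replicate 4 was here the highest sample. Kcnj6 had 461 to 571 in shControl (median 541) and 559 to 899 in shOpn3 (median 824). It rose by 0.55 (limma SE 0.130, adjusted p = 0.0118), with shOpn3 replicate 4 inside the range of the controls. The call of Kcnj6 was lost when both samples of replicates 1 and 5 were left out (adjusted p = 0.104). Kcnj9 had a log2 difference of 0.17 (95% interval -0.25 to 0.59).

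Kcnj4 (ENSRNOG00000013869), an inward rectifier known from forebrain neurons, had 84.6, 20.4, 10.2, 26.2 and 82.3 normalized counts in shControl and 197, 184, 121, 110 and 184 in shOpn3. As for Kcnh3, shControl replicates 1 and 5 lay above the other controls, and every shOpn3 sample lay above all controls. Its mean rose 3.55-fold. The limma estimate, a difference of mean log2 values and not the log2 of that ratio, was 2.19 (SE 0.498, adjusted p = 0.00937). The estimate was 3.06 without shControl replicates 1 and 5. That fit, too, left out the controls nearest to the shOpn3 samples.

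Kcnj10 (ENSRNOG00000007705), the main inward rectifier of astrocytes and oligodendrocytes, had 4160, 3351, 2861, 2913 and 4079 normalized counts in shControl and 2413, 1831, 1705, 2308 and 2347 in shOpn3. Replicates 1 and 5 were the highest of both groups, and the groups did not overlap. The mean fell from 3473 ± 621 to 2121 ± 327 (SD over 5 samples a group; limma estimate -0.71 on the log2 scale with SE 0.136 and adjusted p = 0.00376). Kcnj16 (ENSRNOG00000004713), which joins Kcnj10 in the same glial channels, had 3095, 3221, 3291, 3457 and 3276 in shControl and 2854, 2793, 2964, 3230 and 3073 in shOpn3. All pairs were lower in shOpn3, with overlapping groups, and the difference of -0.13 was not called (95% interval -0.27 to 0.01). Kcnj12 had a difference of -0.42 that was not called (adjusted p = 0.157). It was called with the block (adjusted p with the block = 0.0149) and when both samples of replicates 1 and 5 were left out. Kcnj8, known from pericytes, was at -0.09 and Kcnj13 at -0.02, and neither was called.

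Leak channels (Kcnk) are open at rest. Kcnk13 rose, Kcnk3 fell and 6 of 8 tested were not called, with a median log2 difference of -0.02. Kcnk13 (ENSRNOG00000047363), known from microglia, had 97.9, 74.3, 73.5, 74.0 and 86.5 normalized counts in shControl and 136, 112, 146, 185 and 132 in shOpn3. The groups did not overlap and shOpn3 replicate 4 was the highest, as for Kcnn4. It rose by 0.79 (limma SE 0.157, adjusted p = 0.00449).

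Kcnk3 (ENSRNOG00000009790), an acid-sensitive leak channel, had 363, 337, 323, 345 and 312 normalized counts in shControl and 277, 284, 191, 234 and 290 in shOpn3. The groups did not overlap, and it fell by 0.41 (log2 fold change -0.41, limma SE 0.126, adjusted p = 0.0379). The call was lost without any 1 of shControl replicates 1 to 4 or shOpn3 replicates 3 and 4 (log2 fold change -0.43 to -0.31, adjusted p 0.0577 to 0.0835), and without shControl replicates 1 and 5 together (adjusted p = 0.0689). Kcnk2 (ENSRNOG00000002653), a leak channel opened by stretch and warmth, had 2160, 2073, 2010, 2212 and 1962 in shControl and 2302, 2482, 2224, 1982 and 1977 in shOpn3. Its groups overlapped, and the log2 difference of 0.07 had a narrow 95% interval of -0.10 to 0.24. Kcnk5 had a difference of -0.61 that was not called (adjusted p = 0.147) and was called with the block (adjusted p with the block = 0.0400).

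Markers of several cell types differed between the groups along with these genes. In tissue samples fewer cells of a type and less RNA per cell cannot be told apart. Of 9 magnocellular markers 7 fell and 0 rose, and their summed level was 86052 to 207381 normalized counts in shControl and 39224 to 77412 in shOpn3. All 9 oligodendrocyte markers fell, with sums of 744605 to 1266560 and of 254553 to 479800. Both lists fell along with Kcnmb4, Kcna1, Kcna6 and Kcnj10, and their part in these falls was not tested. Of 8 astrocyte markers 3 rose and 0 fell, with sums of 262859 to 347382 in shControl and 309692 to 450014 in shOpn3, while Kcnj10 fell.

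All 10 markers of microglia and macrophages rose, with sums of 10155 to 14626 in shControl and 19212 to 39997 in shOpn3. As for Kcnn4 and Kcnk13, shOpn3 replicate 4 had the highest sum. It was also the highest shOpn3 sample in the sums of the astrocyte, T cell, oligodendrocyte precursor, endothelial and pericyte lists. Its high place was therefore not particular to the microglial markers. T cell markers, at 56.1 to 132 and 130 to 375, rose in 4 of 5. The part of these cells in the rises of Kcnn4 and Kcnk13 was not tested. Of 10 general neuronal markers 2 rose and 2 fell, and their sums overlapped. Oligodendrocyte precursor markers fell in 2 of 5 (Olig1 and Olig2), and those of endothelium (5 tested) and of pericytes and smooth muscle (5 tested) gave 0 calls in limma, also at an unadjusted p under 0.05. None of the markers in these lists was at 0 in all samples.

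A list of 8 markers of cortical excitatory neurons was written after Kcnh3 and Kcnj4 had been seen. Its 7 tested genes included 4 that rose, among them Slc17a7 (log2 fold change 2.88, limma adjusted p = 0.00285), the vesicular glutamate transporter of cortical neurons, and 0 that fell. Summed normalized counts were 6712, 2572, 2228, 2863 and 6503 in shControl replicates 1 to 5 and 11734, 9413, 8218, 5950 and 10207 in shOpn3. Thus shControl replicates 1 and 5 had the highest sums of their group here as for Kcnh3, Kcnj4 and Kcnv1. The same controls were also highest in the sums of the astrocyte, microglial, oligodendrocyte and oligodendrocyte precursor markers and of the striatal markers below. Their high place was therefore not particular to the cortical markers. In the magnocellular and general neuronal sums shControl replicate 5 was the lowest control. For the cortical markers shOpn3 replicate 4 had the lowest sum of its group. The lowest shOpn3 sample for Kcnh3, Kcnj4, Kcnv1, Kcnf1, Kcnh5, Kcnh7 and Kcnab1 was likewise replicate 4. That sample was also the lowest of its group in the sum of the general neuronal markers (144014, beside 191575 to 244492 in the other shOpn3 samples) and in the sum of all 92 potassium channel genes (66877), so that its low place was not particular to the cortical markers. The part of this tissue in the rises was not tested. Without shControl replicates 1 and 5, the log2 fold changes of Kcnv1, Kcnf1, Kcnh5, Kcnh7 and Kcnab1 were 2.08, 1.10, 1.05, 0.85 and 1.48, and all 5 were called. For Kcnv1, Kcnf1 and Kcnab1 the samples left out were the highest controls, so that a larger value was bound to follow. For Kcnh7 they were the lowest controls, and a smaller value was bound to follow. That fit kept every shOpn3 sample, so that it is no test of the part of this tissue. A list of 8 striatal spiny neuron markers, written at the same time, had 2 higher and 2 lower, with sums of 5721 to 9691 in shControl and of 6794 to 8136 in shOpn3.

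**Figure D4:**
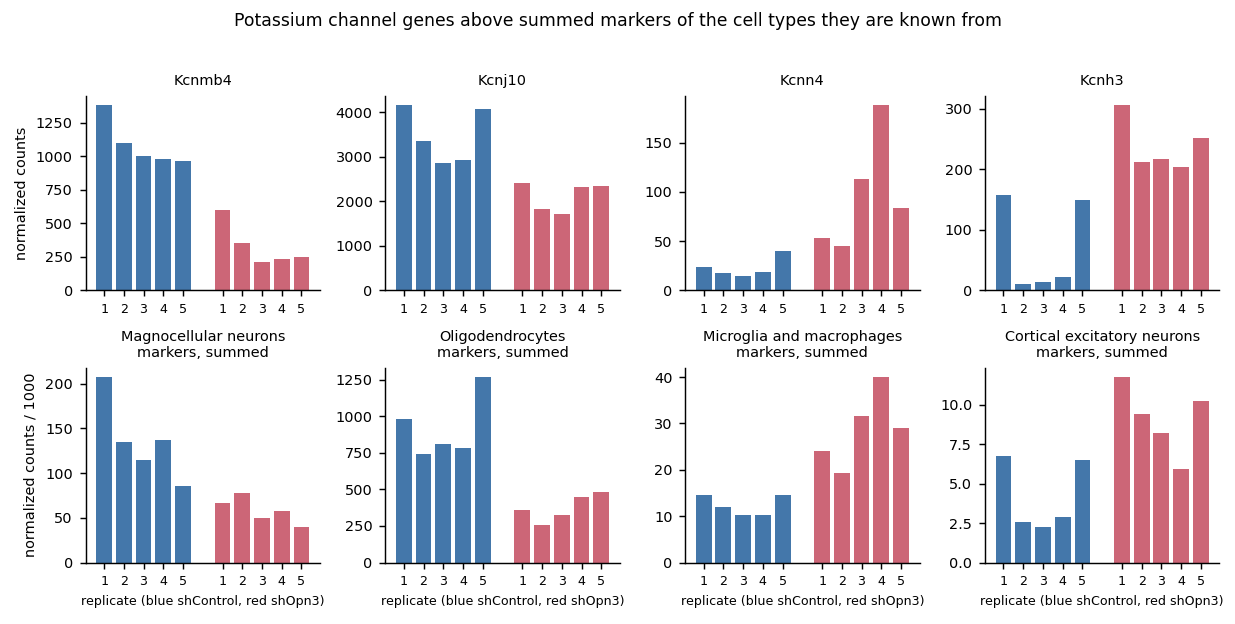
Upper row, normalized counts of Kcnmb4, Kcnj10, Kcnn4 and Kcnh3 in each sample; lower row, summed normalized counts of markers of magnocellular neurons, oligodendrocytes, microglia and macrophages, and cortical excitatory neurons. Bars are single samples, replicates 1 to 5 of shControl in blue and of shOpn3 in red. Kcnh3 and the cortical markers are both high in shControl replicates 1 and 5, and Kcnn4 and the microglial markers both peak in shOpn3 replicate 4. The oligodendrocyte and microglial markers are also highest among the controls in replicates 1 and 5. Among the shOpn3 samples, the astrocyte and T cell sums, not shown, were also highest in replicate 4.

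Genes without a Kcn name that code for channel partners or for the sodium-potassium pump were examined from a list of 32, of which 28 table rows were tested (Calm2 stood in 2 rows). Here 3 rose and 3 fell, 21.4% of those tested beside 18.8% of all genes. With the block 10 of the 28 were called, beside 30.3% of all genes. Akap5, an anchoring protein that binds M-current channels, rose from 358 ± 46.5 to 750 ± 114 normalized counts (SD over 5 samples a group; limma estimate 1.06 on the log2 scale, adjusted p = 0.000385). Lgi1, a secreted protein of the Kcna1 complex, rose by 0.53 (limma adjusted p = 0.0150), and Atp1b2, the glial beta subunit of the pump, by 0.27 (limma adjusted p = 0.0361). The call of Atp1b2 was lost without any 1 of shControl replicates 1 to 3 or shOpn3 replicates 3 to 5 (adjusted p up to 0.0994), and without shControl replicates 1 and 5 together (0.26, adjusted p = 0.0684). Lgi3, a relative of Lgi1, the axonal adhesion protein Cntn2 and the receptor Adam23 fell, with log2 fold changes of -0.63, -0.91 and -0.82 (limma adjusted p = 0.00154, 0.00510 and 0.00525). Cntn2 and Lgi3 fell along with Kcna1 and Kcna6 of the same axonal complexes, and the oligodendrocyte markers fell too. Kcna2, Kcnab1, Kcnab3 and Lgi1, of the same channels and complexes, rose. The part of the oligodendrocytes in the falls was not tested. Dpp6 and Dpp10, partners of the A-type channels, had log2 differences of -0.07 and 0.34 and were not called, and the sulfonylurea receptors Abcc8 and Abcc9 were at -0.09 and -0.17, not called either.

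The 13 members with a mean under 10 normalized counts were Kcna7, Kcna10, Kcne1, Kcnip2, Kcnk6, Kcnk7, Kcnk12, Kcnk15, Kcnk16, Kcnk18, Kcnmb3, Kcnq1 and Kcnu1. Just below the limit was Kcna7, at a mean of 9.44 and with 27.1 in shOpn3 replicate 3, and just above it Kcne3, at 10.04. Kcne1 and Kcnmb3 were at 0 in all samples. In the authors' deposited table, 26 of the 84 members with an adjusted p had one under 0.05, beside 3711 of all 17437 such genes (21.3%). Of these 26 members, 25 were among the 26 called here and had the same sign. Kcnh3 was the member called here alone.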

How the data were processed

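RNA sequencing values of 10 samples were deposited as 1 table. Per the submitters' processing notes, the authors used FastQC, STAR, featureCounts and DESeq2, without versions; the genome build, annotation and strand setting are not given in the sources used here. The deposited signal per gene and sample is a normalized count, and every positive value was a whole multiple (tolerance 1e-04) of what 1 read is worth in its sample, so 100% of the values came out as whole reads. Per the file headers, the table also holds the authors' comparison, namely a log2 fold change with its SE, a Wald score, p-values and adjusted p-values. Refitting those reads in DESeq2, with group as the only term, gave values that differed from it by more than 1e-04 in 0 genes.

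Values were analysed as log2(normalized count + 1) with limma 3.58.1 (R 4.3.3; eBayes with a trend, group alone) over all 15597 genes with a mean of at least 10, two-sided, with Benjamini-Hochberg adjustment and a threshold of 0.05. A limma estimate is a difference between group means of log2 values, which need not equal the log2 of the ratio of the group means. For some members the estimates differed from the authors' comparison in either direction. Kcnh3 had a log2 fold change of 2.58 here beside 1.75 there, and Kcnj4 2.19 beside 1.83. Kcnn4 had 1.93 here beside 2.09 there. The procedure was tested on simulated data. Intervals are 95% limits of that fit. On the recovered reads, edgeR 4.0.16 called 3025 genes and DESeq2 1.42.0 called 3705, beside 2940 in limma. Other alternatives were the pseudocount, the filter, TMM and quantile scaling, limma-voom with and without sample quality weights, the replicate number as a block, and leaving samples out.

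After subtraction of the group mean, shControl and shOpn3 samples with equal numbers were correlated over genes. In each of 5 pairs r lay above the limit of 0.1 (0.12 to 0.44). Samples with unequal numbers had r from -0.45 to 0.36 (median -0.21), so that the pair of replicate 4, at 0.12, lay within their range. The numbers were taken to pair the samples. The labels say that each rat received both hairpins but not which samples share a rat. The members and lists were chosen with earlier results of these data known. Named genes were all called members, members with described roles in these neurons or glia, and called partner genes. The lists of cortical and striatal markers were written with the sample values in view. Sample values are given for called members whose groups did not overlap and for the members with described roles. All 92 names were found as symbols in RefSeq (GRCr8), which was used for names, gene order, overlaps and promoter sequences, matched by symbol. A few members' own results are not reported here, though they are counted in the totals.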

Additional observations from a re-analysis of the deposited data

Results flagged for a closer look

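Of 74 group values examined (36 potassium channel genes and Opn3, in both groups), 4 held 1 sample that stood unusually far from its neighbour relative to the spread of the group; at 1 in 20, about 3.7 would arise by chance. Kcna6 was highest in replicate 5 of both groups: it reached 12194 normalized counts in shControl, where the second highest value was 9737, and 7664 in shOpn3, where the second highest was 6490. Kcnq3 was lowest in shControl replicate 4, at 839, with the second lowest at 998. Kcnh1 was lowest in shControl replicate 5, at 1681, with the second lowest at 2130.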

How the results depend on the processing

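The 26 called members took 598 values in 23 alternative fits: 561 kept direction and call, 37 lost the call, and 0 changed sign. Without 1 replicate, calls were lost for Kcnh6, Kcna2, Kcnk3, Kcnip4 and Kcnip3. The number of members called was 42 under limma-voom with sample quality weights, and 22 to 27 without 1 replicate. Over all genes the count was 5085 with those weights and 4726 with the replicate block, and for partner genes 11 and 10. Between 1987 genes (without shOpn3 replicate 3) and 3056 were called in all without 1 replicate, and 5 to 8 partner genes. Opn3 stayed called throughout (log2 fold change -2.31 to -1.66). Kcnq3, near 0, changed sign in edgeR (0.0031), DESeq2 (0.014), limma-voom with sample quality weights (0.023) and without shControl replicates 1 and 5 (0.029), and ranged from -0.11 to 0.11 without 1 replicate; the log2 fold change of Kcnma1 was -0.039 without both samples of replicates 1 and 5. The cause was not tested. Fits without shControl replicates 1 and 5, or without both samples of those numbers, were chosen after the data had been seen. Among the members, the block lost no call and added 8, of which Kcnh2, Kcnip1, Kcnj12, Kcnk5 and Kcnt1 are given in the report; among the partners it added Vapb, Dlg4, Ank3 and Atp1b3. The median log2 difference of all genes was -0.03 under both TMM and quantile scaling. Few reads limit Kcnv2, Kcnj1, Kcnj15 and Kcne3, whose 95% intervals were wide.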
